A study of Homo sapiens with 2 samples.

Results

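The genes described here are 10 transcription factor genes of the epithelial-to-mesenchymal transition (EMT): SNAI1, SNAI2, SNAI3, ZEB1, ZEB2, TWIST1, TWIST2, TCF3, TCF4 and PRRX1. They were chosen by symbol, and each symbol matched 1 of the 58735 gene rows of both count tables. The RNA came from MCF10a-Snail-ER cells, a human mammary epithelial line that stably expresses Snail, the product of SNAI1, fused to the estrogen receptor. The cells had been held for 1 day in 100 nM tamoxifen, the ligand that switches such fusions on. Polyadenylated RNA was read on 2 platforms, 1 library each: a Nanopore direct RNA library, in which native RNA strands are read, and an Illumina TruSeq stranded mRNA library, made from fragmented and amplified cDNA. Both libraries were from treated cells, and no untreated library was analysed here, so the only comparison open is between the platforms. Neither library has a replicate, and every interval and p-value below covers counting error in these libraries alone.

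In EMT, epithelial cells lose their junctions and polarity and take on mesenchymal traits. Snail and ZEB factors are zinc finger proteins that bind E-box sequences in promoters such as that of the E-cadherin gene CDH1 and recruit corepressors to them. TWIST factors are basic helix-loop-helix (bHLH) proteins that bind E-boxes as pairs with the E proteins, which include TCF3 and TCF4, and the ID proteins block this by pairing with E proteins without binding DNA. PRRX1 is a homeobox factor of mesenchymal tissue.

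Because members of a family resemble each other, the coding sequences were searched for the longest stretch that paralogs share. The stretches below are shown because they are the longest that the coding sequences of these paralogs have in common. Each is read 5′ to 3′ on the coding strand of the MANE Select transcript, the reference isoform of a gene in GENCODE release 44 (hg38). Capitals mark the bases identical between the paralogs, with 12 bases on either side.
SNAI1: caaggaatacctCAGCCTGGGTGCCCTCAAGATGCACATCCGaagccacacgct
SNAI3: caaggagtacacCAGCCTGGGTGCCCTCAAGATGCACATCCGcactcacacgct
ZEB1: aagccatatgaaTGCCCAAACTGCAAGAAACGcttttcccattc
ZEB2: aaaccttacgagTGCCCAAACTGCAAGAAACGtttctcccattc
TWIST1: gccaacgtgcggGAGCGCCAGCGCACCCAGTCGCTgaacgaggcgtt
TWIST2: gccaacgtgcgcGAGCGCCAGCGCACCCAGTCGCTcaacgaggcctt

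The SNAI1 stretch lies at chr20:49984221-49984274 (plus strand) and the SNAI3 stretch at chr16:88681171-88681224 (minus strand), in the part that encodes their zinc fingers. Those of ZEB1 (chr10:31520131-31520174, plus) and ZEB2 (chr2:144400222-144400265, minus) also encode zinc finger sequence. The TWIST1 (chr7:19116939-19116985, minus) and TWIST2 (chr2:238848426-238848472, plus) stretches encode part of the bHLH domain. All 6 are exonic and each lies within 1 exon. The identical runs were 30 bases for SNAI1 and SNAI3, 23 for TWIST1 and TWIST2 and 20 for ZEB1 and ZEB2, and SNAI1 and SNAI2 shared at most 11. No transcript of SNAI1, TWIST2, TCF3 or PRRX1 had a word of 50 bases in common with a transcript of any other gene. Of the other 6 genes, SNAI3 had the largest share of such words, 7.57%, all in common with its antisense gene SNAI3-AS1. In ZEB1, ZEB2 and TWIST1 the gene with the most words in common was likewise a neighbour on the opposite strand. TCF4 had words in common with 223 genes. Of its 217 shared words, 146 were in common with RPL21P126, a ribosomal protein pseudogene within its body. The strand setting of the counting is not given in the sources used here, so reads of such overlapping genes cannot be told apart with certainty.

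Gene counts totalled 403235 by Nanopore and 191741714 by Illumina, so 1 count stood for 2.48 CPM (counts scaled to a library total of 1000000) in the first and 0.00522 CPM in the second. A count of 0 allows up to 3 counts, which is 7.44 CPM in the Nanopore library and 0.0156 CPM in the other. The 2-sided exact interval used for the levels below reaches 9.15 CPM at a Nanopore count of 0. The labelled cell type was checked against marker genes. All 10 basal mammary epithelial markers were detected in both libraries, with a summed level of 9830 CPM by Nanopore and 11900 CPM by Illumina, most of it from S100A2 (5990 and 7690 CPM). Of 7 luminal markers, 5 and 6 were detected, with 684 and 549 CPM, and PGR was at 0 in both. Most of the luminal sum came from KRT8 (389 and 209 CPM) and KRT18 (280 and 322 CPM). Of 7 fibroblast markers, 2 and 7 were detected, with 27.3 and 34.0 CPM, most of it from DCN. Of 4 immune markers, 1 and 2 were detected, with 32.2 and 45.1 CPM, nearly all from CD68, while CD3E and MS4A1 were at 0 in both. Of 3 endothelial markers, 1 and 3 were detected, with 2.48 and 6.58 CPM. The part of other cell types in the levels below was not tested, and in bulk RNA fewer cells of a type and less RNA per cell cannot be told apart.

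SNAI1 dominated the group. It held 286 of the 336 Nanopore counts of the 10 genes, 85.1% (exact 95% binomial interval 80.9 to 88.8%). By Illumina it held 164973 of 190794, or 86.5% (86.3 to 86.6%). The other 9 genes together had 50 Nanopore counts and 25821 Illumina counts. Nanopore detected 6 of the 10 genes and Illumina all 10, where 54.9% of the genes with an Illumina count also had a Nanopore count.

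**Figure D1:**
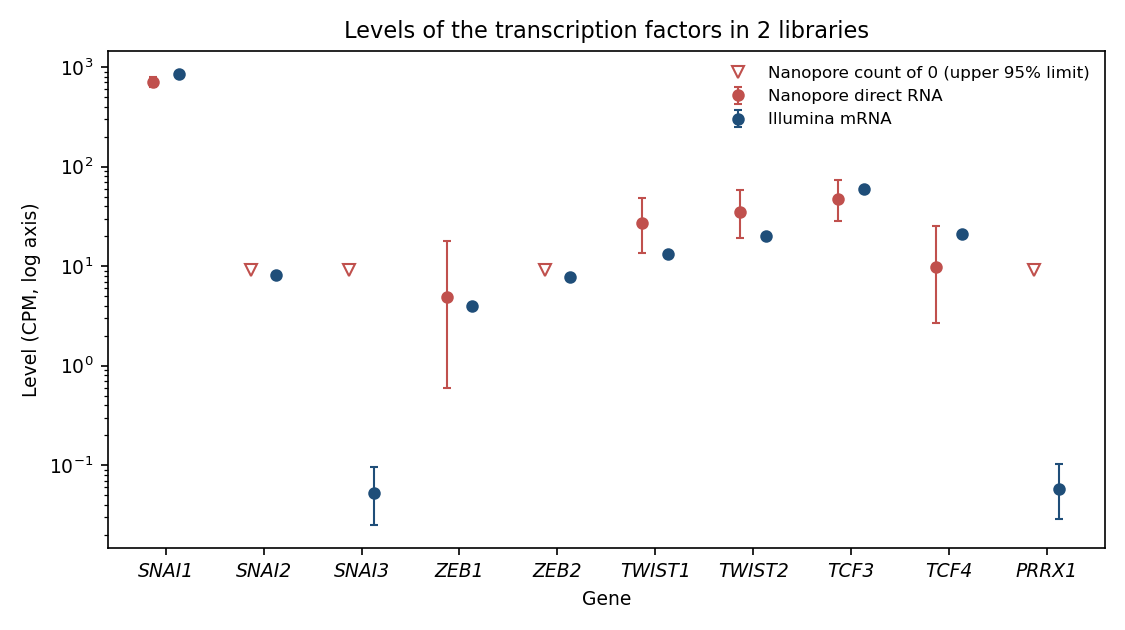
Level of each transcription factor gene in CPM (log axis) by Nanopore direct RNA (red) and Illumina mRNA (blue) sequencing, 1 library each. Bars are exact 95% binomial intervals for counting error, and open triangles mark Nanopore counts of 0, drawn at the upper end of that interval, 9.15 CPM. SNAI1 stands above all other genes in both libraries, and SNAI3 and PRRX1 lie lowest by Illumina.

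SNAI1 (ENSG00000124216, chromosome 20, 49982980 to 49988886, plus strand) encodes Snail itself. With 286 counts by Nanopore it ranked 172 among protein-coding genes, and with 164973 counts by Illumina it ranked 151. Divided by transcript length, its Illumina level was 784 TPM (counts divided by length, here that of the MANE Select transcript, and scaled to the same total as CPM), which ranked 172 as well. Its level was 1.21-fold lower by Nanopore (95% interval 1.08 to 1.37). The 286 counts lay below the 347 expected from the Illumina share at the Nanopore depth, for which a Poisson distribution gives a 95% range of 311 to 384. SNAI1 counts may include the Snail-ER construct. ESR1 (ENSG00000091831), the gene of the receptor to which Snail is fused, had 389 Nanopore and 27469 Illumina counts. The ESR1 count was 1.36 times that of SNAI1 by Nanopore (1.16 to 1.59) and 0.167 times by Illumina (0.164 to 0.169), or 0.0449 times per MANE Select length. The last ratio uses native transcript lengths, 6327 bases for ESR1 and 1705 for SNAI1. The length of a construct transcript is not known here, so this ratio and the TPM of SNAI1 hold only for native transcripts. The tables hold no value that separates the construct from the 2 endogenous genes, so neither gene's native level is known from them. SNAI1P1, a processed pseudogene of SNAI1 on chromosome 2, had 1 Nanopore count and 0 Illumina counts.

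SNAI2 (ENSG00000019549, chromosome 8, 48917598 to 48921740, minus strand) encodes Slug, the Snail paralog known for its role in basal mammary epithelium. It had 0 counts by Nanopore and 1572 by Illumina, 8.20 CPM (7.80 to 8.61). The Illumina level of SNAI2 was thus seen without a single direct RNA read. The Illumina share led to an expectation of 3.31 Nanopore counts, and a Poisson draw at that value gives 0 with a probability of 0.0367. Of the 1190 protein-coding genes above 5 and up to 10 CPM by Illumina, 17.4% had no Nanopore count. SNAI1 exceeded SNAI2 by 105 times in Illumina counts (99.9 to 110) and by 134 times in length-scaled TPM. SNAI3 (ENSG00000185669, chromosome 16, 88677688 to 88686507, minus strand), a further paralog, had 0 Nanopore and 10 Illumina counts, 0.0522 CPM (0.0250 to 0.0959). Its antisense neighbour SNAI3-AS1 had 0 and 229 counts, so the antisense gene had the larger Illumina count of the pair.

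ZEB1 (ENSG00000148516, chromosome 10, 31318495 to 31529814, plus strand), a repressor of epithelial genes and of the microRNAs that maintain the epithelial state, had 2 counts by Nanopore and 766 by Illumina. These are 4.96 CPM (0.601 to 17.9) and 3.99 CPM (3.72 to 4.29), and the Nanopore interval spans the Illumina level. ZEB1-AS1, which overlaps its start on the opposite strand, had 1 and 394 counts, 2.48 and 2.05 CPM. ZEB2 (ENSG00000169554, chromosome 2, 144364364 to 144521057, minus strand), its paralog, had 0 counts by Nanopore and 1496 by Illumina, 7.80 CPM (7.41 to 8.21). The expectation for ZEB2 was 3.15 Nanopore counts, and 0 then has a Poisson probability of 0.0430. Its MANE Select transcript is the longest of the group, 9265 bases against 5937 for ZEB1. The Illumina count of ZEB2 was 1.95 times that of ZEB1 (1.79 to 2.13), but per MANE Select length the ratio was 1.25, with levels of 1.31 and 1.05 TPM. ZEB2-AS1 had 0 and 13 counts, and the pseudogene ZEB2P1 was at 0 in both libraries.

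TWIST1 (ENSG00000122691, chromosome 7, 19020991 to 19117636, minus strand), a bHLH factor of cranial mesoderm that induces EMT, had 11 counts by Nanopore and 2576 by Illumina. Its levels were 27.3 CPM (13.6 to 48.8) and 13.4 CPM (12.9 to 14.0), 2.03-fold higher by Nanopore (1.01 to 3.64). The 11 counts lay 1 above the upper end of the Poisson range, which ran from 1 to 10 around an expectation of 5.42. TWIST2 (ENSG00000233608, chromosome 2, 238848032 to 238910534, plus strand), the paralog also known as Dermo, had 14 and 3879 counts. These correspond to 34.7 CPM (19.0 to 58.3) by Nanopore and 20.2 CPM (19.6 to 20.9) by Illumina, a ratio of 1.72 (0.937 to 2.88), and 14 was the upper end of its Poisson range of 3 to 14. Both TWIST genes were thus detected by direct RNA sequencing. TWIST2 overlaps no other annotated gene. The lncRNA ENSG00000232821, opposite TWIST1, had 0 and 32 counts.

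TCF3 (ENSG00000071564, chromosome 19, 1609291 to 1652615, minus strand) encodes the E proteins E12 and E47, which pair with TWIST and also repress CDH1. It had 19 counts by Nanopore, 47.1 CPM (28.4 to 73.6), and 11442 by Illumina, 59.7 CPM (58.6 to 60.8). The expectation was 24.1 Nanopore counts with a range of 15 to 34, which holds the observed count. TCF4 (ENSG00000196628, chromosome 18, 55222185 to 55664787, minus strand), the E protein also called ITF2, had 4 counts by Nanopore, 9.92 CPM (2.70 to 25.4), and 4069 by Illumina, 21.2 CPM (20.6 to 21.9). Its expectation was 8.56 with a range of 3 to 15. TCF4 has 93 annotated transcripts and TCF3 has 21. The antisense gene TCF4-AS1 had 2 Nanopore counts and no Illumina count, next to the 4 Nanopore counts of TCF4. PRRX1 (ENSG00000116132, chromosome 1, 170662728 to 170739421, plus strand) had 0 Nanopore and 11 Illumina counts, 0.0574 CPM (0.0286 to 0.103), and at that level the Nanopore library would hold 0.0231 counts. PRRX1 and SNAI3 were the rarest of the group by Illumina. Of 3415 protein-coding genes with an Illumina level above 0 and up to 1 CPM, 82.1% had no Nanopore count.

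**Figure D2:**
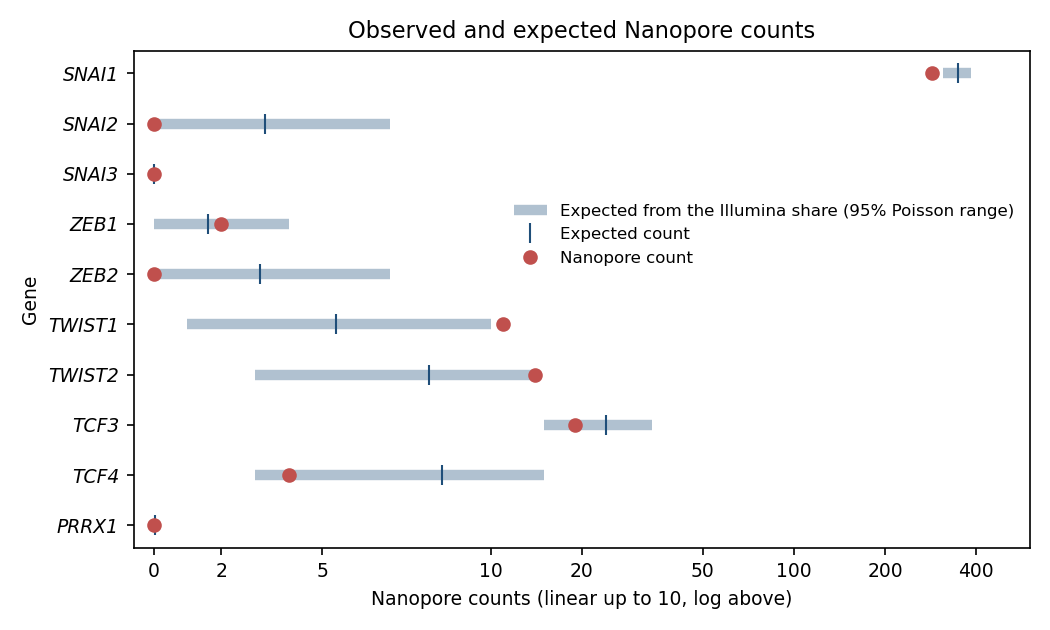
Nanopore counts of the transcription factor genes (red points) against the count expected from each gene's Illumina share at the Nanopore depth (blue ticks) with its 95% Poisson range (bars). The horizontal axis is linear up to 10 counts and logarithmic above. SNAI1 lies below its range, TWIST1 lies 1 count above, and the other 8 genes lie within theirs. For SNAI2, SNAI3, ZEB1, ZEB2 and PRRX1 the range starts at 0, so no count could lie below it. The share of all genes outside such a range was not computed.

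The order of the genes was compared within each library. A direct RNA read stands for 1 RNA strand whatever its length, so Nanopore CPM were compared without division by length. By Nanopore the order was SNAI1, TCF3, TWIST2, TWIST1, TCF4 and ZEB1, with 286, 19, 14, 11, 4 and 2 counts. Over the 15 pairs of these 6 genes, an exact two-sided binomial test with Benjamini-Hochberg adjustment passed 0.05 for 10. SNAI1 exceeded each of the other 5, by 15.1 times over TCF3 (9.46 to 25.4, adjusted p = 7.27e-62) and by more over the rest. TCF3 exceeded TCF4 by 4.75 times (1.58 to 19.2, adjusted p = 0.00557). No other neighbours in the order differed beyond counting error: TCF3 and TWIST2 had a ratio of 1.36 (0.645 to 2.93), TWIST2 and TWIST1 one of 1.27 (0.537 to 3.10), TWIST1 and TCF4 one of 2.75 (0.815 to 11.8) and TCF4 and ZEB1 one of 2.00 (0.287 to 22.1).

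By Illumina the level per MANE Select length was 784 TPM for SNAI1, 23.4 for TWIST2, 19.6 for TCF3, 12.8 for TWIST1, 5.84 for SNAI2 and 4.10 for TCF4. It was 1.31 TPM for ZEB2, 1.05 for ZEB1, 0.0465 for SNAI3 and 0.0219 for PRRX1. The counting intervals of SNAI3 (0.0223 to 0.0856 TPM) and PRRX1 (0.0110 to 0.0393 TPM) overlapped, and those of all other neighbours in this order did not. The order depended on the length used: TCF3, which was below TWIST2 here and with union exonic length, stood at 42.2 TPM against 22.1 for TWIST2 with mean transcript length. In each of these orders SNAI1 came first.

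The libraries were then compared gene by gene with an exact binomial test conditional on each gene's summed count. It was adjusted over the 12414 genes whose mean level reached 5 CPM. A gene was called at an adjusted p under 0.05 and a ratio of 2-fold or more, computed as log2(CPM + 1), which understates the ratio of rare genes. SNAI1, TWIST1, TWIST2, TCF3 and TCF4 passed the filter on low values. The other 5 had means from 0.0261 CPM for SNAI3 to 4.48 CPM for ZEB1 and were not tested. None of the 5 tested genes was called in either direction, where 17.7% of all tested genes were called higher by Nanopore and 21.7% higher by Illumina. Without the fold threshold only SNAI1 passed, among 27.2% of all tested genes that were higher by Illumina at that rule, and 20.2% were higher by Nanopore. At an unadjusted p under 0.05, 2 passed, SNAI1 and TWIST1.

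The log2 ratio of Nanopore over Illumina was −0.28 for SNAI1 (exact binomial adjusted p = 0.0027), 0.97 for TWIST1 (0.0888), 0.75 for TWIST2 (0.139), −0.33 for TCF3 (0.478) and −1.02 for TCF4 (0.231). TCF4 therefore passed the fold but not the p, with an interval of its CPM ratio from 0.127 to 1.20. The median ratio of the 5 tested genes was −0.28, beside −0.42 over all tested genes. Both TWIST genes kept a ratio above 0 under each of the 8 scalings, lengths and pseudocounts tried, from 0.56 to 1.09 for TWIST1 and from 0.42 to 0.87 for TWIST2. Neither passed the adjusted p in any of them. With union exonic, mean transcript and MANE Select length the median of all tested genes was itself 0.40, 0.06 and 0.48. TWIST1 was then at 0.56, 0.60 and 1.04, and TWIST2 at 0.42, 0.63 and 0.55. The sign of SNAI1, TCF3 and TCF4 depended on division by length. SNAI1 turned to 0.23 with mean transcript length (exact binomial adjusted p = 0.0266) and moved to −0.95 with union exonic length (6.02e-34). TCF3 became 1.23 with MANE Select length (adjusted p = 0.00352 by the same exact test), a call higher by Nanopore, and TCF4 became 1.88 with union exonic length (0.0406), likewise a call. For SNAI1, TMM scaling gave −0.19 with an exact binomial adjusted p of 0.0544 and median-ratio scaling −0.15 with 0.145, so its small difference did not pass under these scalings.

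**Figure D3:**
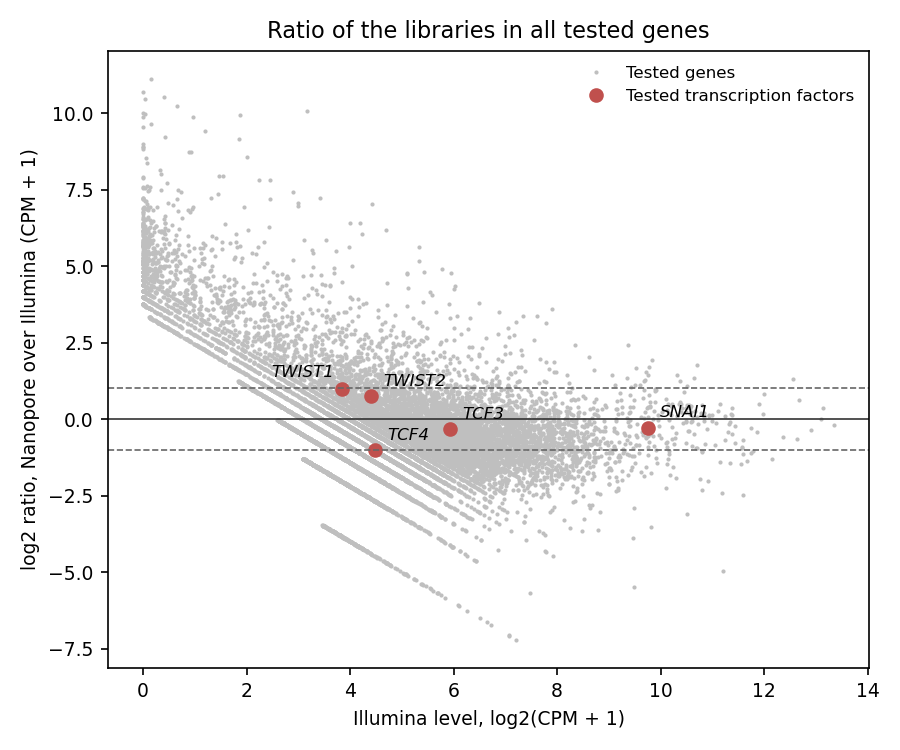
Log2 ratio of Nanopore over Illumina level (CPM + 1) against Illumina level for all 12414 tested genes (grey), with the 5 tested transcription factor genes in red. Dashed lines mark 2-fold. The red points lie between −1.02 (TCF4) and 0.97 (TWIST1), inside the spread of the other genes, whose lower diagonal bands are Nanopore counts of 0, 1, 2 and so on.

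**Figure D4:**
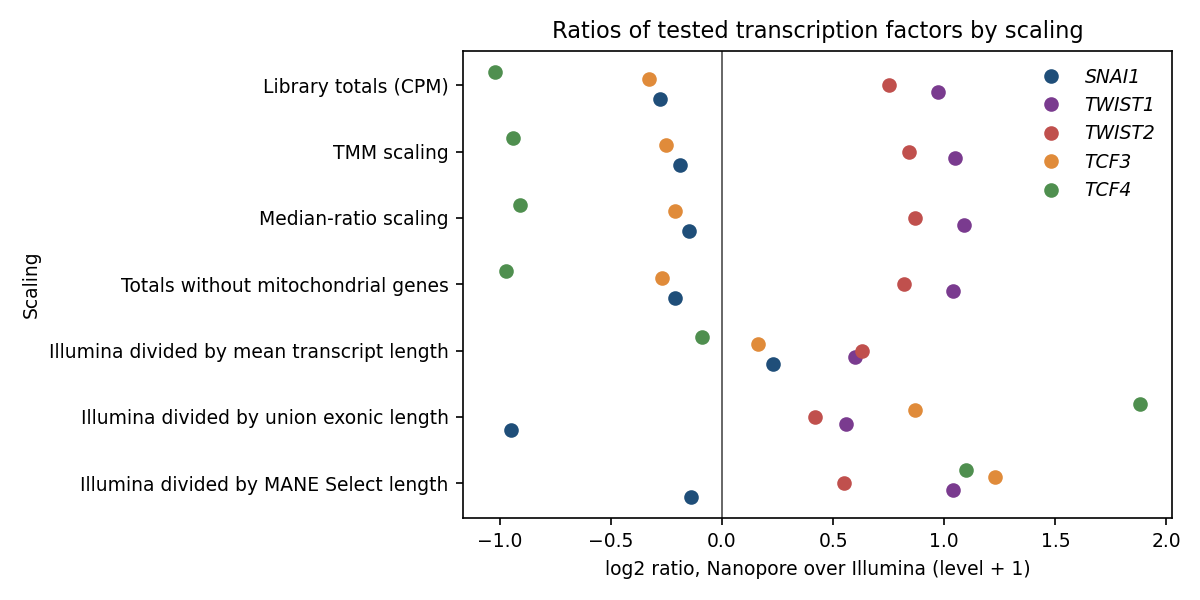
Log2 ratio of Nanopore over Illumina level for the 5 tested transcription factor genes (colours) under library totals and 6 other scalings, 1 value per gene and scaling. TWIST1 and TWIST2 stay above 0 throughout, while SNAI1, TCF3 and TCF4 change side under at least 1 of the 3 length corrections. Under these corrections the median of all tested genes, not drawn, is also above 0.

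For the 4 genes with at least 10 Nanopore counts, the protein-coding genes nearest in level over the 2 libraries were sought, by Euclidean distance on the log2(CPM + 1) scale. Among the genes nearest to SNAI1 were TKT, a pentose phosphate enzyme gene (261 and 157364 counts, distance 0.148), and CAV1, the caveolin gene (254 and 171189 counts, 0.179). Nearest to TWIST1 were DDX28, TCEAL1 and RNF113A, each with 11 Nanopore counts. Nearest to TWIST2 were ENSG00000281039, MTHFD2L and TM2D1, each with 14. SERINC2, CUEDC2 and MOCS2 were nearest to TCF3, each with 19. These rest on 2 values a gene and describe level only.

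Among the bHLH partners and inhibitors of TWIST and the E proteins, ID1 was higher by Nanopore and TCF12 higher by Illumina. Of 8 listed genes, 4 were tested, where 17.7% of all tested genes were called higher by Nanopore and 21.7% higher by Illumina. ID1, which sequesters E proteins, had 101 and 12941 counts. Its Nanopore level of 250 CPM was set against 67.5 CPM in the Illumina library, a ratio of 3.71 (3.02 to 4.51) with a log2 ratio of 1.88 (exact binomial adjusted p = 7.82e-26). ID1 kept its direction under all 8 alternatives, though below 2-fold with union exonic length (0.75). TCF12, the remaining E protein gene, had 4 and 8238 counts and a log2 ratio of −2.01 (adjusted p = 0.00101 by the same exact test), which was −0.13 by MANE Select length and no longer called. ID2 had 8 and 1931 counts and ID3 had 21 and 12040, with no call. ID4 had 0 and 1, and HAND1, HAND2 and MSC were at 0 in both libraries. The list's median ratio was 0.32, beside −0.42 over all tested genes. With union exonic, mean transcript and MANE Select length it was 0.18, 0.00 and 0.28, beside 0.40, 0.06 and 0.48, so it then lay below that of all genes.

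Summed over genes, TCF3, TCF4 and TCF12 had 27 Nanopore counts and the ID genes 130. The ID sum was thus 4.81 times the E protein sum by Nanopore (3.16 to 7.58). By Illumina the sums were 23749 and 26913 counts, a ratio of 1.13 (1.11 to 1.15), and per MANE Select length the ratio was 6.40. Without ID1 the ratio was 1.07 by Nanopore (0.614 to 1.89) and 0.588 by Illumina counts (0.576 to 0.601). Per MANE Select length the Illumina level of ID3 alone was 103 TPM, beside 34.6 TPM for the E protein sum. On that scale the ID genes thus stayed above the E proteins without ID1.

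**Figure D5:**
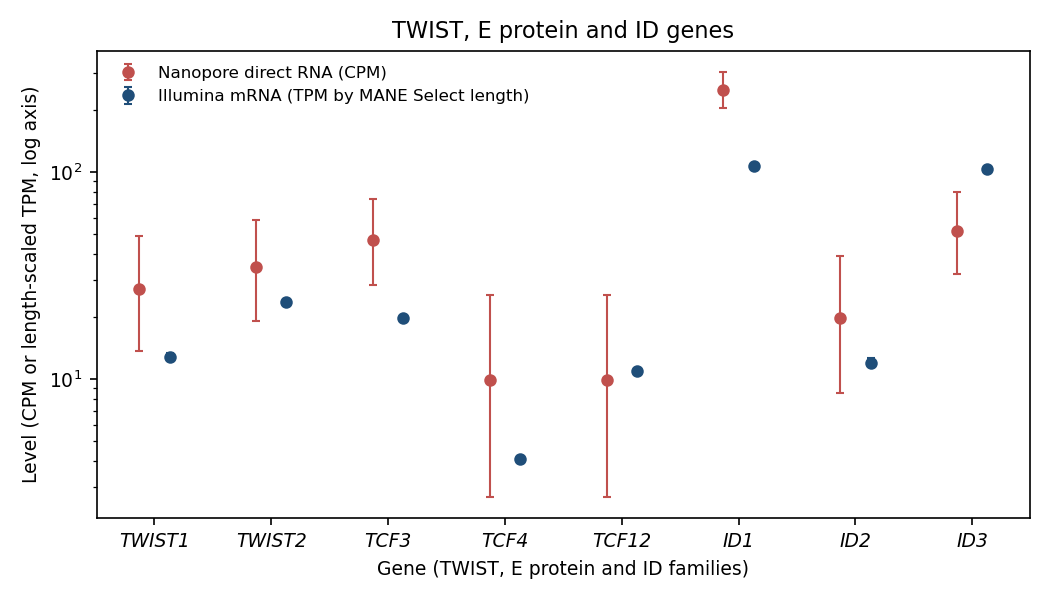
Level of TWIST, E protein and ID genes by Nanopore (red, CPM) and by Illumina (blue, TPM by MANE Select length) on a log axis, 1 library each, with exact 95% binomial intervals for counting error. ID1 is the highest of these genes by Nanopore, at 250 CPM, and by Illumina ID1 (107 TPM) and ID3 (103 TPM) lie together, with ID3 the higher by mean transcript length (91.7 against 73.1 TPM).

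Among the nearer relatives of the group, SCRT1 and PRRX2 had 6 and 46 Illumina counts, SCRT2 had none, and Nanopore read none of them. Of 12 other transcription factors linked to EMT, 9 were detected by Nanopore and 10 by Illumina, and 7 were tested. HMGA2 and ETS1 were called higher by Illumina, beside 21.7% of all tested genes. HMGA2, a chromatin architectural factor upstream of SNAI1 and TWIST1, had 12 and 16469 counts and a log2 ratio of −1.50 (exact binomial adjusted p = 7.43e-05), which turned to 0.90 with union exonic length. Its call was also lost with mean transcript length (−0.61) and MANE Select length (−0.12). ETS1 had 5 and 14417 counts and a ratio of −2.51 (adjusted p = 2.16e-07 by the same exact test), and was not called with union exonic or MANE Select length. FOSL1, an AP-1 subunit, had 18 and 13855 counts, and SOX4 had 9 and 4676, without a call. GSC and TBXT were at 0 in both. The median of the 7 was −1.02, beside −0.42 over all tested genes.

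The corepressors that Snail and ZEB proteins recruit were all detected in both libraries. CTBP1 and CTBP2, partners of ZEB, had 30 and 39 Nanopore counts and log2 ratios of 0.05 and −0.07. HDAC2 (46 and 35301 counts, −0.69), RCOR1 (12 and 9774, −0.76) and SUZ12 (11 and 9442, −0.83) lay lower and were not called. HDAC2 passed the adjusted p but not the fold. Of 9 genes, 4 were called higher by Illumina, beside 21.7% of all tested genes: HDAC1 (28 and 28629 counts, −1.09), KDM1A (26 and 27335, −1.13), EZH2 (2 and 10717, −3.25) and SIN3A (6 and 11407, −1.93). KDM1A, the demethylase that docks on the SNAG domain of Snail, turned to 1.57 with union exonic and 0.27 with mean transcript length, and SIN3A to 0.23 and 0.11 with union exonic and MANE Select length. Opposite KDM1A, the lncRNA ENSG00000240553 had 32 and 291 counts, and its part in the KDM1A count was not tested. HDAC1 kept its direction under all 8 alternatives but was below the threshold in 3, and EZH2 kept its direction with 1 loss. The list's count depended on the length used. With union exonic length 4 were called higher by Nanopore and 0 by Illumina, beside 3410 and 1152 of 11976 tested genes. With MANE Select length the counts were 2 and 1, beside 3460 and 897 of 11691. With mean transcript length they were 0 and 2, beside 2576 and 1434 of 11919. The list's median was −0.83, beside −0.42 over all tested genes. It became 0.40 with union exonic length, equal to that of all genes. With MANE Select length it was 0.65, beside 0.48, and with mean transcript length −0.25, beside 0.06.

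Among 13 factors that keep the epithelial state, GRHL2, OVOL1 and ELF5 were at 0 in both libraries and ELF3 had 0 and 6 counts. With library totals OVOL2, a repressor of ZEB1, was the only one of 6 tested that was called, where 17.7% of all tested genes were called higher by Nanopore. It had 48 counts by Nanopore but only 824 by Illumina, and its log2 ratio was 4.50 (exact binomial adjusted p = 9.82e-49), a call kept under all 8 alternatives. OVOL2 overlaps SNX5 on the same strand, which had 55 and 29501 counts, a Nanopore count close to that of OVOL2, and the part of SNX5 reads in it was not tested. KLF5 (37 and 13175 counts), ESRP1 (5 and 3663), GATA3 (4 and 2479) and ESRP2 (3 and 1199) had no call with library totals. The list's count depended on the length used. With union exonic, mean transcript and MANE Select length 2, 2 and 3 of the 6 were called higher by Nanopore. Over all tested genes these were 3410 of 11976, 2576 of 11919 and 3460 of 11691. The list's median was 0.32, beside −0.42 over all tested genes. With the 3 lengths it was 0.92, 0.66 and 1.32, beside 0.40, 0.06 and 0.48.

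A list of 17 genes was taken from textbook accounts of E-boxes bound by Snail or ZEB, and binding was not examined here. Of these genes, Nanopore detected 14, Illumina 16, and 12 were tested. CDH1 had 3 and 4634 counts and a log2 ratio of −1.58 (exact binomial adjusted p = 0.0525). Divided by length, its Illumina level was 10.8, 15.3 and 7.80 TPM with union exonic, mean transcript and MANE Select length, beside 7.44 CPM by Nanopore. The keratin genes KRT18 (113 and 61710 counts) and KRT8 (157 and 40083) and the desmoplakin gene DSP (53 and 35664) had the highest Illumina levels of the list and no call. KRT8 (log2 ratio 0.89, exact binomial adjusted p = 1.82e-11) and DSP (−0.50, 0.0225) passed the adjusted p but not the fold. CDH3, the P-cadherin gene of basal cells, was called higher by Illumina (22 and 26801 counts, −1.34), as was TJP1 (5 and 9370, −1.90), and PKP2, a desmosomal plakophilin, higher by Nanopore (21 and 3984, 1.29). Over all tested genes, 21.7% were called higher by Illumina and 17.7% by Nanopore. The ratio of CDH3 turned to 0.16 with MANE Select length and that of TJP1 to 0.21, while PKP2 kept its call under all 8 alternatives. CDH3-AS1, a lncRNA gene opposite CDH3, had 12 and 770 counts, and its part in the CDH3 count was not tested. CLDN3 was at 0 in both libraries, and CLDN4 and OCLN had 0 Nanopore counts with 19 and 20 by Illumina. The list's median was −0.37, beside −0.42 over all tested genes, and 0.08 beside 0.40 with union exonic length. Of 8 mesenchymal genes, 5 were tested. FN1 (22 and 50517 counts, −2.25) and ITGA5 (33 and 86597, −2.45) were called higher by Illumina, beside 21.7% of all tested genes. FN1 turned to 0.39 and 0.16 with union exonic and MANE Select length. The median of the 5 was −0.91, beside −0.42 over all tested genes. With union exonic, mean transcript and MANE Select length it was 0.39, −0.53 and 0.23, beside 0.40, 0.06 and 0.48. VIM, at 700 and 350409 counts, was the only one of the 8 with more Nanopore counts than SNAI1. Opposite ITGA5, the GPR84-AS1 genes ENSG00000258086 and ENSG00000258137 each had 38 Nanopore counts, with 38 and 189 by Illumina. Their part in the ITGA5 count was not tested.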

How the data were processed

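Per the labels, RNA of MCF10a-Snail-ER cells treated for 1 day with 100 nM tamoxifen was sequenced on 2 platforms, and each library formed its own group by its title. The authors deposited whole-number counts per Ensembl gene without normalization. The submitters' processing notes name minimap2 2.11-r797, HISAT2 2.1.0, featureCounts and hg38, while options, annotation release, strand setting and the treatment of multi-mapping or overlapping reads are not given in the sources used here. Names, positions and lengths came from GENCODE release 44 (hg38), which held 58207 of the 58735 identifiers.

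Counts were scaled to library totals (CPM). With 1 library per group edgeR has no spread to estimate, so an exact conditional binomial test (two-sided, scipy 1.17.1) was run on genes whose mean level reached 5 CPM, adjusted by Benjamini-Hochberg and tested on simulated data. Its p-values concern these particular libraries only. Intervals are exact Clopper-Pearson at 95%. Amplified reads are not independent molecules, so intervals and limits cover counting error only. TMM factors came from edgeR 4.0.16. TPM used union exonic, mean transcript or MANE Select length, the last chosen after the data were seen.

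All 10 genes are named, as are listed genes that were called. Up to 4 others per list with the highest Illumina level are named, besides those at 0 in both libraries. Some were named after their values were seen: CDH1, SUZ12, ELF3, CLDN4, OCLN and neighbours of OVOL2, KDM1A, CDH3 and ITGA5. The genes and lists were chosen with earlier results of these data known. Some nearest genes and shared stretches are not reported here.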

Additional observations from a re-analysis of the deposited data

How the results depend on the processing

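Detection of the 10 genes by Nanopore fell from 6 at 1 count to 5 at 3 and 4 at 10 counts, and by Illumina it stayed at 10 in each case. The number called higher by Nanopore was 0, and became 1 with union exonic length (TCF4) and 1 with MANE Select length (TCF3). The number called higher by Illumina was 0, and became 1 (SNAI1) without a fold threshold. The reversed ratios were 0.23 for SNAI1 and 0.16 for TCF3 with mean transcript length, 0.87 for TCF3 and 1.88 for TCF4 with union exonic length, and 1.23 for TCF3 and 1.10 for TCF4 with MANE Select length. Of the 40 alternative ratios of the 5 tested genes, 31 kept their direction and side of the threshold, 6 changed sign and 3, all of SNAI1, kept the sign and lost the threshold.

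Over all tested genes, 2197 were called higher by Nanopore and 2699 by Illumina. Union exonic length gave 3410 and 1152, mean transcript length 2576 and 1434, MANE Select length 3460 and 897, genes without overlap 164 and 712 of 2810, and a 4-fold threshold 1597 and 908 (a Nanopore share of 63.8%). The Nanopore share of all calls went from 44.9% to 74.7, 64.2 and 79.4% with the 3 lengths, to 18.7% without overlapping genes, and to 54.6 and 55.5% with a filter of 1 CPM or none. The median ratio of all tested genes moved by 0.82, 0.48 and 0.90 with the lengths and by 0.10 and 0.14 with TMM and median-ratio scaling. The cause of these changes was not tested. No paired analysis was possible because each group is 1 library, and none could be left out in turn. The Nanopore depth limits most statements on these genes: 4 of 10 had no count and 2 more had under 5.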
